A study of Mus musculus with 6 samples.

Results

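Activity-induced and immediate early genes are switched on within minutes when calcium enters a neuron through synaptic receptors and voltage-gated channels, or when a growth factor or serum reaches the cell. Calcium-dependent and MAP kinases phosphorylate factors already bound at these genes, among them CREB, SRF with its ELK partners, and MEF2, so that no new protein is needed for the first wave. Its products are transcription factors that switch on a later wave of synaptic genes, phosphatases that end the kinase signal, and secreted or synaptic proteins that change the cell's connections.

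The 39 genes described here were taken as a list of such factors, feedback regulators and effectors, and a row of the deposited table was assigned to a gene where the spans of row and gene overlapped by at least 0.5 of their union. Of the 39 genes, 38 had a row, and Nr4a1 had none by this rule. They took 41 of the 32357 rows in the table, because Srf, Homer1 and Crem had 2 rows each at a single position. The 2 values were known for 40 of these 41 rows. Values are FPKM, the fragments per kilobase of transcript scaled to the mapped reads of the library, so levels may be compared between genes.

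RNA came from 6 libraries of primary cortical cultures of Balb/c mouse embryos at E14.5 (the embryonic day), collected after 4 days in vitro by the sample labels (the methods text gives a later day). The Neurod2 knockdown group held 4 libraries, 2 with the hairpin shNeurod2-1 and 2 with shNeurod2-2, and the other 2 libraries carried a non-silencing shRNA. In both groups the hairpin was expressed from the plasmid pSuperneoGFP, brought in by nucleofection at plating, and the cells were grown in medium with serum, a known inducer of many of these genes. No stimulus or block of activity is named for either group. The labels do not say whether libraries of 1 hairpin came from separate cultures. The table holds 1 pooled value per group, with both Neurod2 hairpins in one column. No spread between libraries could be given and no test could be made, and the depth behind each value is unknown. Every difference is therefore a comparison of 2 numbers without a replicate check.

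Neurod2, the targeted bHLH transcription factor of excitatory neurons, stood at 60.3 FPKM in the knockdown and 105 FPKM in the non-silencing group, a log2 fold change of -0.80. Neuronal transcripts were abundant in both groups, with 879 (knockdown) and 839 FPKM (non-silencing) for Tubb3, 363 (knockdown) and 340 FPKM (non-silencing) for Stmn2, and 346 (knockdown) and 302 FPKM (non-silencing) for Map2. The 9 rows of 8 neuronal markers summed to 1996 FPKM in the knockdown and 1858 FPKM in the non-silencing group, and 7 of their 8 rows with a mean of at least 1 FPKM lay above 0, with a median of 0.12 on the log2 scale. Markers of astrocytes and radial glia summed to 1592 FPKM in the knockdown and 1436 FPKM in the non-silencing group, led by Fabp7 with 1227 (knockdown) and 1057 FPKM (non-silencing), Vim with 140 (knockdown) and 142 FPKM (non-silencing), and Slc1a3 with 90.4 (knockdown) and 87.5 FPKM (non-silencing). In that list Gfap, the intermediate filament of mature astrocytes, had 35.1 FPKM in the knockdown and 57.4 FPKM in the non-silencing group. The cultures therefore held glial as well as neuronal RNA, and activity-induced genes are expressed in both. Markers of the oligodendrocyte lineage summed to 104 FPKM in the knockdown and 110 FPKM in the non-silencing group, led by Olig1 with 52.4 (knockdown) and 56.4 FPKM (non-silencing), Olig2 with 36.87 (knockdown) and 36.92 FPKM (non-silencing), and Pdgfra with 8.17 (knockdown) and 10.3 FPKM (non-silencing). Other cell types left little RNA. Markers of mesenchymal and endothelial cells summed to 5.17 FPKM in the knockdown and 3.81 FPKM in the non-silencing group, led by Dcn with 1.564 (knockdown) and 1.553 FPKM (non-silencing), Pdgfrb with 1.38 (knockdown) and 1.56 FPKM (non-silencing), and Col1a1 with 0.975 (knockdown) and 0.125 FPKM (non-silencing). Microglial markers summed to 0.553 FPKM in the knockdown and 0.294 FPKM in the non-silencing group, led by Aif1, Tmem119 and Csf1r, each under 1 FPKM, and C1qb was at 0 in both. In RNA from whole cultures, fewer cells of a type and less RNA per cell cannot be told apart. The part of any cell type in the differences given here was not tested.

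The listed AP-1, EGR and other inducible regulators of transcription were lower in the Neurod2 knockdown group in all but 1 row past a low-value filter. For 1 of the lower rows, at Srf and listed at 0 in the knockdown, which RNA it measured was not tested. Factors on the further list given below, such as Nr4a2, are not counted here. Of the 5 rows of effector genes past that filter, 3 were lower. Their median log2 fold change was -0.06, with a range of -0.38 to 0.22. Among rows with a mean over both groups of at least 1 FPKM and a value above 0 in each, the lowest ratios belonged to Fos, Egr1 and Ier2, at 0.520, 0.521 and 0.607 of their non-silencing level. A log2 fold change was computed from FPKM with 0.1 FPKM added to each value, and a row entered the counts where its mean over both groups was at least 1 FPKM. Of the 29 rows of 27 genes that passed this filter, 23 lay below 0 and 6 above, and the median was -0.28. Rows past 1.5-fold numbered 4 on the lower side (Fos, Egr1, Ier2 and a row at Srf listed at 0) and 0 on the higher side. Over all 12822 rows past the filter, 2.44% were past 1.5-fold on the lower side and 2.36% on the higher side. Among rows with a mean of 1 to 10 FPKM, where Fos, Egr1 and Ier2 lie, those shares were 1.87% and 2.07%. All rows had a median of -0.03 with quartiles of -0.13 and 0.07, and 58.0% of them lay below 0, against 79.3% of the 29 rows described here. A further list of activity-induced genes, given below, had 57.7% of its 26 rows below 0 and a median of -0.06. Both lists were chosen with earlier results of these data known. With the row at 0 left out, the median of the activity-induced genes was -0.27.

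**Figure D1:**
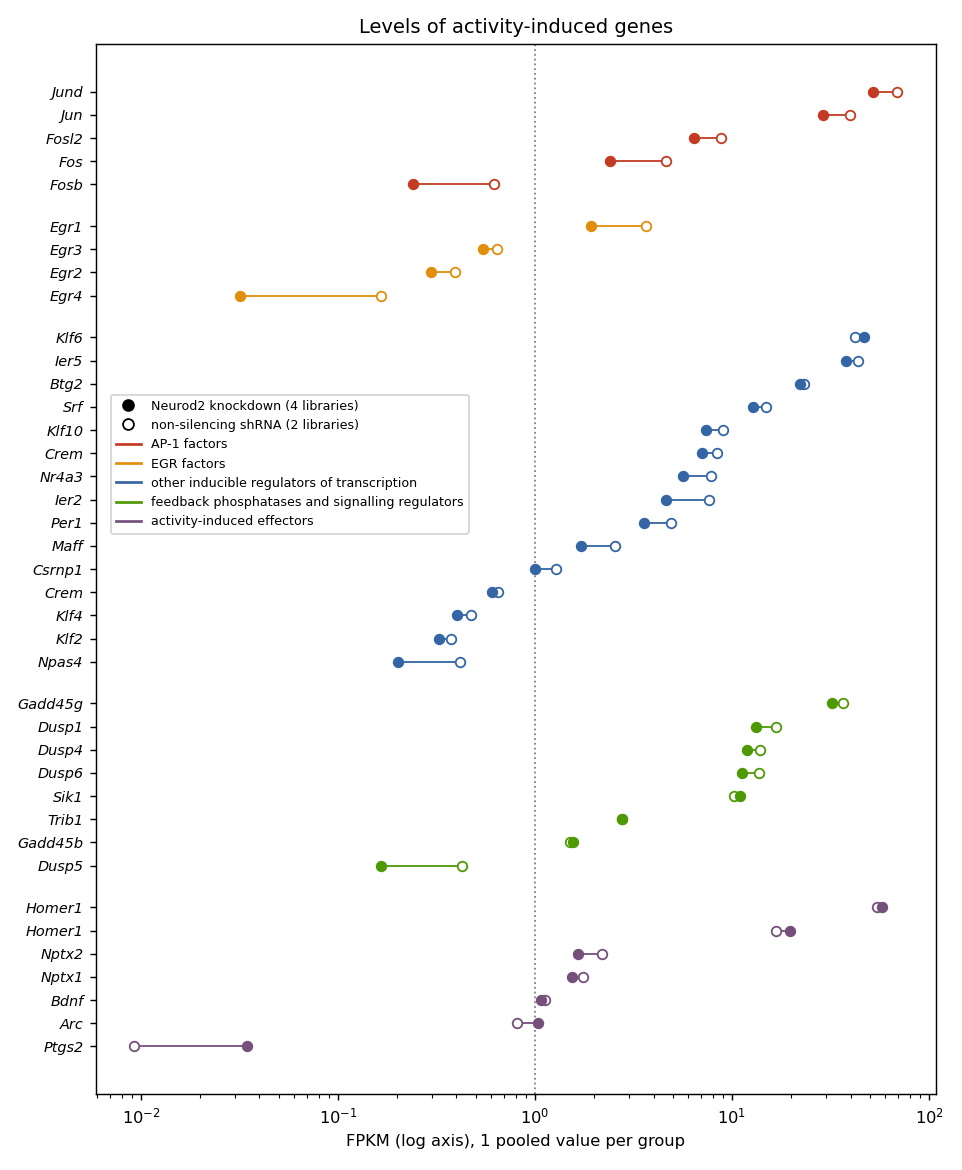
FPKM of activity-induced genes in the Neurod2 knockdown (filled circles, 1 value pooled over 4 libraries) and the non-silencing group (open circles, 1 value pooled over 2 libraries), on a log axis, with colours for 5 classes and a dotted line at 1 FPKM. The 4 AP-1 rows above that line lie to the left in the knockdown, and Homer1 lies slightly to the right; Junb, with 3 possible readings, and the row at Srf listed at 0 are left out.

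The AP-1 factors, basic leucine zipper proteins that bind DNA as pairs of a JUN with a FOS or another JUN, were lower in the knockdown in each of their 4 rows past the filter, with a median of -0.45 on the log2 scale and 1 row past 1.5-fold. Jund, the JUN member known for high resting expression, had the highest level with 51.8 FPKM in the knockdown and 69.1 FPKM in the non-silencing group (log2 fold change -0.42). Jun, the partner that gives AP-1 its name, had 28.8 FPKM in the knockdown and 39.5 FPKM in the non-silencing group (-0.45). Fosl2, a FOS relative that is induced later and lasts longer, had 6.45 FPKM in the knockdown and 8.78 FPKM in the non-silencing group (-0.44). Jund, Jun and Fosl2 thus differed by about the same factor. Fos, the textbook marker of recent neuronal activity, lay further down. Its row at chr12:85473901-85477270 (mm10, plus strand) had 2.40 FPKM in the knockdown and 4.62 FPKM in the non-silencing group, a log2 fold change of -0.92, and 1.51% of all rows past the filter had a lower value. Fosb, whose truncated form accumulates in chronically active neurons, was under the filter with 0.241 FPKM in the knockdown and 0.620 FPKM in the non-silencing group. For Junb, a JUN member that can restrain JUN, 3 readings of the altered cells remained. They were 3.33 FPKM in the knockdown against 3.88 FPKM in the non-silencing group, 9.29 FPKM in the knockdown against 10.8 FPKM in the non-silencing group, and 15.3 FPKM in the knockdown against 17.8 FPKM in the non-silencing group. Each gives a ratio of 0.857, because a reading was kept only where its ratio matched the deposited fold change.

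Of the EGR factors, zinc-finger proteins induced together with FOS, only Egr1 passed the filter. Egr1, also known as Zif268 and widely used as an activity marker, lies at chr18:34861207-34864956 (mm10, plus strand). It had 1.92 FPKM in the knockdown and 3.68 FPKM in the non-silencing group, a log2 fold change of -0.91, close to that of Fos. Its relatives were barely detected. Egr3, an activator of Arc, had 0.546 FPKM in the knockdown and 0.642 FPKM in the non-silencing group, and Egr2, known for its roles in the hindbrain and in myelination, had 0.297 (knockdown) and 0.395 FPKM (non-silencing). Egr4 had 0.0318 FPKM in the knockdown and 0.166 FPKM in the non-silencing group. All 4 EGR genes were thus lower in the knockdown, but the values of 3 of them are near the bottom of the scale.

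The other inducible regulators of transcription gave 12 rows past the filter, 11 of them below 0, with a median of -0.30 (-0.29 without the row at 0). Ier2, a small nuclear protein of the first wave, had the largest difference among them apart from that row. Its row at chr8:84661331-84662852 (mm10, minus strand) had 4.62 FPKM in the knockdown and 7.62 FPKM in the non-silencing group (log2 fold change -0.71). Next came Maff, a small MAF protein without an activation domain of its own, with 1.70 FPKM in the knockdown and 2.54 FPKM in the non-silencing group (-0.55), just short of the 1.5-fold limit. Nr4a3, an orphan nuclear receptor, had 5.67 FPKM in the knockdown and 7.78 FPKM in the non-silencing group (-0.45). Per1, a repressor in the circadian clock that is also induced through CREB, had 3.60 FPKM in the knockdown and 4.88 FPKM in the non-silencing group (-0.43). Nr4a3 and Per1 thus had fold changes close to those of Jun and Fosl2, and Maff lay lower.

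Smaller differences were seen for the remaining regulators. Csrnp1, a nuclear protein rich in cysteine and serine, had 1.00 FPKM in the knockdown and 1.28 FPKM in the non-silencing group (-0.32), and Klf10, a zinc-finger factor induced by TGF-beta, had 7.37 (knockdown) and 9.004 FPKM (non-silencing), at -0.29 on the log2 scale. Crem, which encodes activators and inducible repressors at CREB sites, had 7.06 FPKM in the knockdown and 8.41 FPKM in the non-silencing group (-0.25) in the larger of its 2 rows. Its other row had 0.607 (knockdown) and 0.650 FPKM (non-silencing). Ier5, a nuclear protein linked to the heat shock factor HSF1, had 37.8 FPKM in the knockdown and 43.8 FPKM in the non-silencing group (-0.21). Btg2, an antiproliferative protein of early neuronal differentiation, differed little, with 22.1 (knockdown) and 23.3 FPKM (non-silencing), at -0.08 on the log2 scale. Klf6 was the 1 regulator with the higher value in the knockdown, 46.9 FPKM against 42.1 FPKM in the non-silencing group (0.16), and it had the highest mean level of this class among rows with a value in both groups. Its relatives Klf4 and Klf2 were under the filter, with 0.404 FPKM in the knockdown and 0.472 FPKM in the non-silencing group for Klf4 and 0.325 (knockdown) and 0.373 FPKM (non-silencing) for Klf2. Npas4, a factor induced in neurons by calcium entry and by few other stimuli, was also low, with 0.203 FPKM in the knockdown and 0.418 FPKM in the non-silencing group.

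Srf, the factor that binds CArG boxes at Fos and Egr1, is itself induced by activity. Of its 2 rows at chr17:46546839-46556162 (mm10, minus strand), one had 12.8 FPKM in the knockdown and 14.8 FPKM in the non-silencing group (-0.21). The other was listed at 0 in the knockdown and at 580 FPKM in the non-silencing group. The microRNA gene Mir6976 and the long noncoding RNA Gm26904 are annotated at the same position, and which of them the second row measured was not tested, so no fold is given. Reads from a gene and from an overlapping gene on the other strand cannot be told apart where counting ignores strand, which also holds for Crem and Gm6225. Nr4a1, the relative of Nr4a3 also called Nur77, had no row with the required overlap. A row covering 0.387 of the union had 1.02 FPKM in the knockdown and 1.79 FPKM in the non-silencing group (-0.76). It was looked up after its values could be seen and is in no count. The row nearest to the limit from inside was that of Jund, with an overlap of 0.580.

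**Figure D2:**
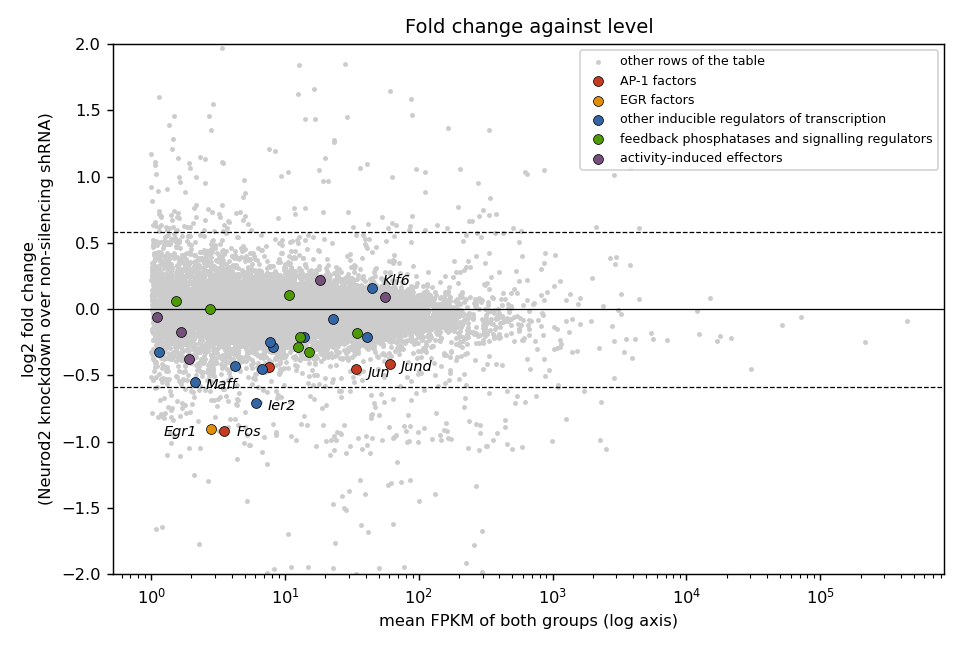
Log2 of the FPKM in the knockdown over that in the non-silencing group against mean FPKM (log axis) for rows with a mean of at least 1 FPKM, with 28 rows of activity-induced genes in colour, all others in grey, and dashed lines at 1.5-fold. Fos and Egr1 lie at -0.92 and -0.91, Ier2 at -0.71, and the row at Srf listed at 0 lies outside the axis.

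The promoters of these genes were read for a few binding sequences, among them those of CREB and SRF. No MEF2 sequence was searched for, and a site that differs by a base from a searched sequence did not count as a match. Upstream windows of 250 bases from RefSeq (GRCm38.p6) matched 28 of the 39 genes in 45 windows, several of them overlapping. Arc, Crem, Dusp4, Egr1, Egr3, Ier2, Klf10, Nptx1, Nptx2, Sik1 and Trib1 were not matched. Windows of 3 genes are shown as examples. They were picked among genes lower in the knockdown, and they do not cover every sequence found. Fos has 2 copies of the CREB half-site, and Maff has a full CREB site and an EGR site. Jun has a fold change like that of Fosl2 and no match to the sequences searched, which does not show that it lacks such sites. Capitals mark the matches, and each window is written 5′ to 3′ on the strand of its gene and ends at the base before the start site. The windows are chr12:85473640-85473889 (plus strand) for Fos, chr15:79347270-79347519 (plus strand) for Maff and chr4:95052223-95052472 (minus strand) for Jun.
Fos: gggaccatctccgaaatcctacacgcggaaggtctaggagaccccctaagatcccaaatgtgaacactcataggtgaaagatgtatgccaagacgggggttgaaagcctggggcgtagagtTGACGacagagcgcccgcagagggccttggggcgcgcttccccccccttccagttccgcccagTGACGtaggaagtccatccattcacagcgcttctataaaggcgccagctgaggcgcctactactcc
Maff: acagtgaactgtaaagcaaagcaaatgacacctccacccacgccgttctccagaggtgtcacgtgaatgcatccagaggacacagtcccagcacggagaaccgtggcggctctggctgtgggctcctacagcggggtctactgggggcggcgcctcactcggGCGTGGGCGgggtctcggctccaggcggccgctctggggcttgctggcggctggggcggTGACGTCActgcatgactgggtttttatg
Jun: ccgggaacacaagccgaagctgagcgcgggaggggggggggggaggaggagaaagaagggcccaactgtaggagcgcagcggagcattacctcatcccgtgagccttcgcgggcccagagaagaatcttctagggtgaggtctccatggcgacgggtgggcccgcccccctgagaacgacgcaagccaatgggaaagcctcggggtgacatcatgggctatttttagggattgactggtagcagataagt

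The CRE half-site TGACG, the short sequence that CREB can bind, stood in a window of 19 of the 28 genes or 67.9%, against 19.8% of all 27025 genes with a window. In Fos it lay 129 and 66 bases before the start site. The full CRE TGACGTCA, which contains the half-site on both strands, was found for Btg2, Dusp1 and Maff, 10.7% of the 28 genes against 1.77% of all genes. In Maff it began 29 bases before the start. The CArG box of SRF was found for Dusp5, Egr2 and Srf, 10.7% against 1.62% of all genes, and Srf had it at 2 places. The AP-1 site TGACTCA was found for Csrnp1 (3.57% against 5.16%), and the EGR site GCGTGGGCG for Maff (3.57% against 0.622%). The E-box CAGATG, a sequence that NEUROD factors bind, was found for 4 of the 28 genes, 14.3% against 16.3% of all genes. Both strands were searched throughout. Rows below 0 were found on both sides of this division. Only rows with a mean of at least 1 FPKM were used here, and the row at Srf listed at 0 was left out. The 11 rows of 10 genes with the half-site had a median of -0.32 with 9 below 0. The 8 rows of 8 genes with a window but no half-site had a median of -0.25 with 6 below 0. This difference was not tested.

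**Figure D3:**
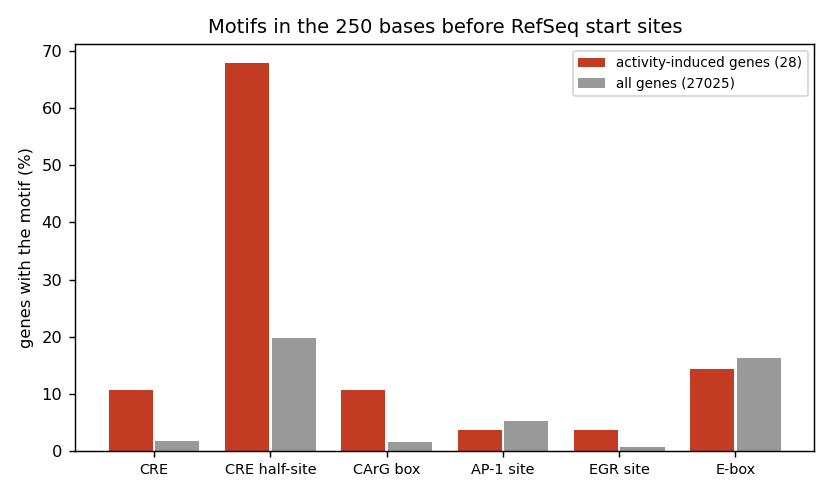
Share of genes (%) with each motif on either strand in the 250 bases before a RefSeq start site, for 28 activity-induced genes (red) and 27025 genes in all (grey). The CRE half-site stands at 67.9% against 19.8%, while the E-box stands at 14.3% against 16.3%.

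Short genes and unstable transcripts are known features of the first wave. The 39 genes had a median of 4 exons (1 to 23), against 7 for 21864 protein-coding genes, and a median span of 7.85 kb against 17.4 kb, while their transcripts were of like length with medians of 2.96 and 2.57 kb. The AU-rich nonamer TTATTTATT, which marks transcripts for fast decay, was in the 3′ UTR of 8 of 39 genes (20.5%), against 7.13% of 20728 protein-coding genes with an annotated 3′ UTR. Those 8 were Csrnp1, Dusp1, Fos, Fosl2, Maff, Per1, Ptgs2 and Srf. Past the filter, and with the row at Srf listed at 0 left out, the 7 rows of genes with the nonamer lay below 0, with a median of -0.43 and a range of -0.92 to -0.21. Of the 21 such rows of genes without it, 15 lay below 0, with a median of -0.21. Ptgs2, a gene with the nonamer, was under the filter and higher in the knockdown, at 0.0345 FPKM against 0.00925 FPKM in the non-silencing group. The difference between these medians was not tested.

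Short rows in the whole table were also lower in the knockdown. The 2886 rows with a span of at most 10 kb had a median of -0.08, and 68.5% of them lay below 0, against -0.02 and 54.9% for longer rows. Among activity-induced genes, 14 of 17 rows with a span of at most 10 kb lay below 0, with a median of -0.28. For their 12 longer rows, 9 lay below 0 and the median was -0.29. By level, the 15 rows with a mean of 1 to 10 FPKM had a median of -0.38 with 13 below 0, and the 14 rows of higher mean had a median of -0.21 with 10 below 0. In the whole table the order by level was the other way, with medians of -0.01 for 1 to 10 FPKM and -0.04 above.

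**Figure D4:**
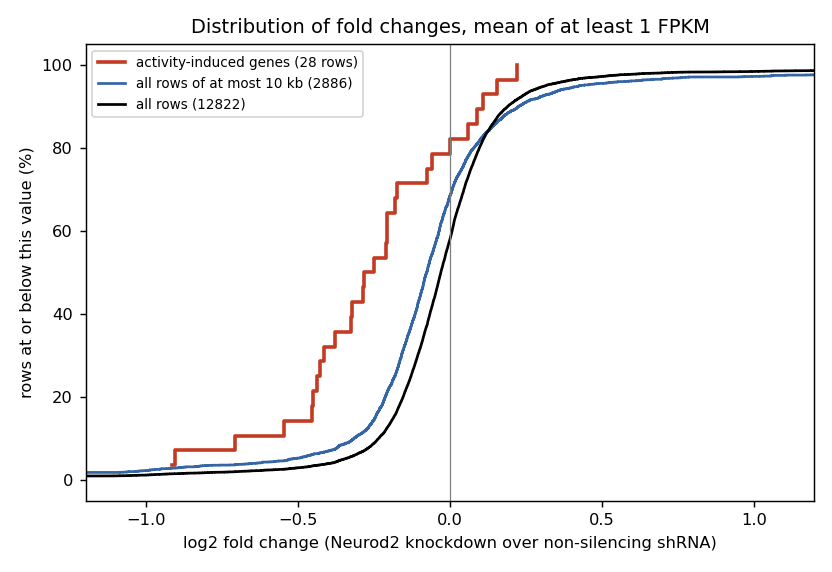
Cumulative share of rows (%) by log2 of the FPKM in the knockdown over that in the non-silencing group, for 28 rows of activity-induced genes (red), 2886 rows with a span of at most 10 kb (blue) and all 12822 rows with a mean of at least 1 FPKM (black). The red line lies left of the others between -0.90 and 0 and ends at 0.22; the row at Srf listed at 0 is left out.

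Feedback phosphatases and other signalling regulators, which end or shape the response, differed less. Of their 7 rows past the filter, 4 lay below 0 and 3 above, with a median of -0.18 and none past 1.5-fold. The phosphatases of MAP kinases were each lower in the knockdown. Dusp1, a nuclear phosphatase of p38, JNK and ERK, had 13.3 FPKM in the knockdown and 16.7 FPKM in the non-silencing group (log2 fold change -0.33). Dusp6, the cytoplasmic phosphatase of ERK, had 11.3 FPKM in the knockdown and 13.7 FPKM in the non-silencing group (-0.28). Dusp4, another nuclear member, had 11.96 FPKM in the knockdown and 13.8 FPKM in the non-silencing group (-0.21). Dusp5, a nuclear phosphatase of ERK, was under the filter with 0.166 (knockdown) and 0.428 FPKM (non-silencing). These enzymes are themselves switched on by ERK. Dusp1, Dusp6 and Dusp4 lay between the AP-1 rows past the filter and the median of all rows, while Dusp5, at low level, was at -0.99.

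Of the 4 signalling regulators outside the phosphatases, Gadd45g was lower in the knockdown and the others were not. Gadd45g, a stress sensor of the GADD45 family, had 32.3 FPKM in the knockdown and 36.6 FPKM in the non-silencing group (-0.18), while its relative Gadd45b, linked to DNA demethylation in active neurons, had 1.57 (knockdown) and 1.4997 FPKM (non-silencing), at 0.06 on the log2 scale. Sik1, a kinase that is induced by CREB and restrains its coactivators, had 11.0 FPKM in the knockdown and 10.2 FPKM in the non-silencing group (0.11). Trib1, a pseudokinase that guides proteins to degradation, had 2.77 FPKM in both groups. Sik1 and Trib1 are thus members at which the knockdown value was not below the non-silencing one.

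The effectors, whose products act at synapses or outside the cell, were by median the class nearest to equality, at -0.06. Of their 5 rows of 4 genes past the filter, 3 lay below 0, and both rows above 0 were at the single position of Homer1. Homer1, a scaffold of the postsynaptic density with a short inducible isoform, had 57.7 FPKM in the knockdown and 54.3 FPKM in the non-silencing group (0.09) in one row, and 19.6 (knockdown) and 16.8 FPKM (non-silencing), at 0.22 on the log2 scale in the other. The genes Gm47075 and Gm47088 are annotated at the same position, and which RNA each row measured was not tested. The rows are not assigned to an isoform, so the inducible form was not measured by itself. Bdnf, a neurotrophin released by active neurons, had 1.07 FPKM in the knockdown and 1.12 FPKM in the non-silencing group (-0.06). Of the neuronal pentraxins, secreted proteins that cluster AMPA receptors, Nptx2 had 1.65 FPKM in the knockdown and 2.18 FPKM in the non-silencing group (-0.38), and Nptx1 had 1.55 (knockdown) and 1.76 FPKM (non-silencing), at -0.18 on the log2 scale. Nptx2, the activity-induced pentraxin, had the lowest fold change of the effectors past the filter. Arc, which drives removal of AMPA receptors, and Ptgs2, the inducible cyclooxygenase COX-2, were under the filter and stood on the other side. Arc had 1.04 FPKM in the knockdown and 0.809 FPKM in the non-silencing group, and Ptgs2 had 0.0345 (knockdown) and 0.00925 FPKM (non-silencing). They were the 2 rows above 0 among 11 under the filter, where 9 lay below 0.

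The relay that carries the signal from calcium and growth factor receptors to these genes stood out in neither direction. Of 36 genes on a list of calcium, MAP kinase and CREB, SRF and MEF2 components, 33 were found, and of their 40 rows past the filter 22 lay below 0 and 18 above, with a median of -0.01. None was past 1.5-fold, and they reached from -0.35 for Rps6ka2, a kinase downstream of ERK, to 0.46 for a row of Mef2c. Of its abundant members, Mef2c had 206 FPKM in the knockdown and 170 FPKM in the non-silencing group in its main row, and Camk2b, a calcium-dependent kinase, had 98.1 FPKM in the knockdown and 106 FPKM in the non-silencing group. Other activity-induced genes outside the 39 were likewise near the middle. Of 34 on that list, 27 were found, and 15 of their 26 rows past the filter lay below 0, with a median of -0.06. Ifrd1, a transcriptional coregulator, had 33.9 FPKM in the knockdown and 53.3 FPKM in the non-silencing group (-0.65) in one row. In another it had 38.1 (knockdown) and 40.5 FPKM (non-silencing). It was the 1 gene of that list with a row past 1.5-fold among rows past the filter. Both rows lie at a single position with a small RNA gene inside, and which RNA each row measured was not tested. Atf3, an immediate early factor of the basic leucine zipper family, was under the filter with 0.633 FPKM in the knockdown and 1.16 FPKM in the non-silencing group (-0.78), and was named after its values were seen. Nr4a2, a relative of Nr4a3, was named in the same way. It passed the filter, with 9.22 FPKM in the knockdown and 8.94 FPKM in the non-silencing group (0.04). The most abundant genes of that list were Mcl1, a survival factor, with 336 FPKM in the knockdown and 324 FPKM in the non-silencing group, Plk2, a kinase of synaptic scaling, with 104 (knockdown) and 98.7 FPKM (non-silencing), and Rheb, an activator of mTORC1, with 84.7 (knockdown) and 83.8 FPKM (non-silencing).

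**Figure D5:**
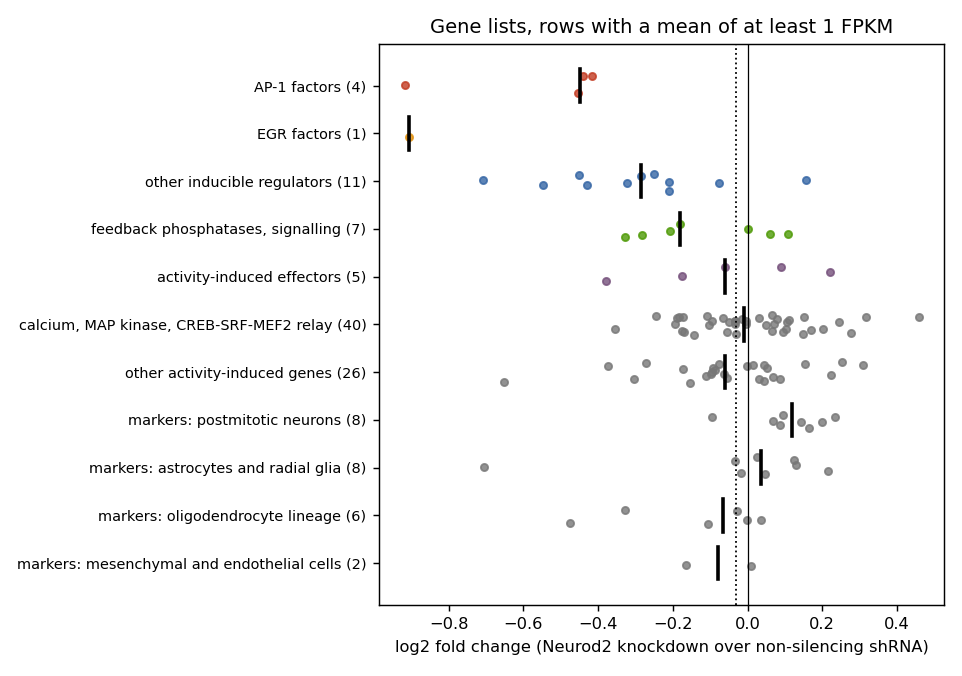
Log2 of the FPKM in the knockdown over that in the non-silencing group of rows with a mean of at least 1 FPKM in the 5 classes of activity-induced genes and in the other lists, with the number of rows in brackets, a bar at each median, a solid line at 0 and a dotted line at the median of all rows (-0.03). The 4 AP-1 rows lie at or below -0.42, and the medians of the relay and of the neuronal markers are -0.01 and 0.12; the row at Srf listed at 0 is left out.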

How the data were processed

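The deposited table comes from 50 bp single-end reads of 6 libraries. Per the submitters' processing notes the authors used TopHat, Cufflinks and Cuffdiff, and the build was mm10. Tool versions: not given in the sources used here. Its FPKM values, 1 per group and row, were scaled by the authors to the length of the transcripts and the size of each library. The authors' own comparison columns (log2 fold change, test statistic, p-value and q-value) are neither reported nor compared here. Their log2 fold change served as a key for altered cells. The ratios of Junb and of the 12 restored rows of these genes therefore match it by construction.

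A spreadsheet had turned FPKM cells of 5035 rows into times of day, the whole part as hours and the decimals as minutes. Each number that could give such a time was tried, and a pair was accepted when its ratio gave the deposited log2 fold change within 2e-05, the only use of that column. This left 83 rows unresolved. For a simulation, the known values of tested rows, restored ones included, were changed by a small factor and put through the same conversion. Of the 4941 rows that it altered, 99.5% were restored rightly, 0.526% were unresolved and 0 were wrong. For the activity-induced genes, 13 rows were altered and 12 restored.

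Rows were placed at genes by an overlap of at least 0.5 of the union with GENCODE M21 spans of GRCm38, the assembly of mm10, for 37 genes, and with RefSeq for Dusp1. Log2 fold changes used a pseudocount of 0.1 FPKM, which understates the differences of low genes, and counts used rows with a mean of at least 1 FPKM. Planned tests over libraries could not be made with 1 value per group. Every one of the 39 genes is named with its values or as missing. From other lists, Neurod2, members past 1.5-fold among rows past the filter and the 3 of highest mean are named. Chosen after their values were seen, the ends of the relay's range, a marker at 0, Atf3 and Nr4a2 are named too. The values of 1 gene of the relay list are not reported here. Members and lists were chosen with earlier results of these data known. Python 3.11.15, pandas 2.3.3 and numpy 2.4.6 were used, and the procedure was tested on simulated data.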

Additional observations from a re-analysis of the deposited data

How the results depend on the processing

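Of the 29 rows, 4 were past 1.5-fold on the lower side, the row at Srf listed at 0 among them. That row is in each lower count below except those with no pseudocount, without shared positions and without rows holding a small RNA gene. Without a filter on low values this was 8 of 40, against 2.60% of all rows. With no filter, all 32274 known rows enter that share, rows at or near 0 FPKM included, so the 2 sets are of unlike level. With a mean of at least 5 FPKM it was 2 of 19 (Ier2 and the row at Srf listed at 0), against 2.44%. At a fold of 2 it was 1, the row at Srf listed at 0 alone, against 1.21% of all rows. At the lower fold limit tried it was 13, against 5.72%. It was 3 of 28 with no pseudocount (2.09% of all rows), 3 of 26 with an overlap of at least 0.8 (2.44%), 3 of 17 without restored cells (2.84%), 3 of 24 without shared positions (1.68%) and 3 of 27 without rows holding a small RNA gene (1.59%). It was 4 of 29 with a pseudocount of 1 FPKM (2.06%), with tested rows (2.35%) and with centred values (2.36%), and 4 of 28 with GENCODE spans alone (2.44%), an alternative chosen after seeing the data. The count on the higher side was 0 in each of these settings, where 1.35% to 4.84% of all rows were past the limit, and the median kept its sign, between -0.30 and -0.22. Fos moved to -0.73 and Egr1 to -0.68 with a pseudocount of 1 FPKM. No single row changed sign. Leaving out a library was not possible. No paired analysis was possible because the table has no column for each library. The unknown depth limits rows of few FPKM most.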
